A study of Mus musculus with 12 samples.

Results

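Fatty acid synthase, 5 elongases and 4 desaturases of fatty acids were examined in mouse skin: Fasn, Elovl1, Elovl4, Elovl5, Elovl6, Elovl7, Fads1, Fads2, Fads3 and Scd2. These 10 genes were chosen by name from the 23282 entries counted, and all 10 passed the filter on low counts. The 12 samples of skin RNA came from male wild-type C57BL/6J mice that entered the experiment at 5 weeks of age. The 5 AD mice were fed a normal diet, and the 7 HF + AD mice, labelled AD+OB, a high-fat diet with 60 kcal% of fat, both for 10 weeks. After 4 weeks of diet, 0.5% 1-chloro-2,4-dinitrobenzene (DNCB), a hapten that causes an atopic dermatitis-like rash, was applied to both groups 3 times a week for 6 weeks. Every mouse compared therefore carried DNCB-treated skin, and the groups differed by diet, with no mouse on the high-fat diet alone analysed here. By the study's methods, mice were fasted before skin was taken.

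Long fatty acids are made in a relay. The cytosolic synthase Fasn builds palmitate from acetyl-CoA and malonyl-CoA, and the ELOVL enzymes of the endoplasmic reticulum then condense an acyl-CoA with malonyl-CoA, after which a reductase, a dehydratase and another reductase complete each round of elongation. Desaturases place double bonds: SCD enzymes make monounsaturated fatty acids, and FADS1 and FADS2 act in turn on polyunsaturated ones. In skin these chains are used in sebum and in the ceramides of the water barrier, for which very long saturated chains are needed.

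Between 9746937 and 11688979 reads were counted in the AD libraries and between 10726845 and 13462434 in the HF + AD libraries. Each library was taken as 1 mouse, although the labels do not name animals. A read was counted for 13100 to 15063 genes in AD mice and for 15522 to 16677 genes in HF + AD mice, so the groups did not overlap in this measure. AD mice 1 and 2 stood apart, with a median Pearson r of 0.859 and 0.864 with the other libraries across 11330 genes, against 0.90 to 0.941 for the remaining 10 mice, and results are given with and without them where they move a call. Levels are reads scaled by library size (CPM, with TMM-scaled totals) from the 3′ end of each mRNA, and changes are log2 fold changes of HF + AD over AD with their standard error (SE) from edgeR. In whole skin, fewer cells of a type and less RNA per cell cannot be told apart.

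Only Elovl1, which elongates saturated and monounsaturated chains to the very long chains of ceramides, passed the test across all genes, and it was higher in HF + AD mice. None of the 10 genes was lower past the threshold with edgeR or in 22 alternative fits, DESeq2 and limma-trend included. Across the 14163 genes tested, 9.2% had an adjusted p under 0.05 (4.43% of all genes higher and 4.77% lower), so 1 of 10 is a share near that of all genes and not a result about the family. By an unadjusted p under 0.05, 4 of the 10 genes differed, Fasn, Elovl1 and Fads3 being higher and Elovl7 lower, against 25.1% of all genes. The same 4 genes had a p under 0.05 in an exact permutation test of their log2(CPM + 1) values over the 792 ways to split 12 mice into 5 and 7, against 28.4% of all genes. For none of the 10 genes were the groups fully separate, as they were for 5.46% of all genes. The fold change was above 0 on the log2 scale for 6 of the 10 genes and below 0 for 4, with a median of 0.16 against 0.023 over all genes tested.

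**Figure D1:**
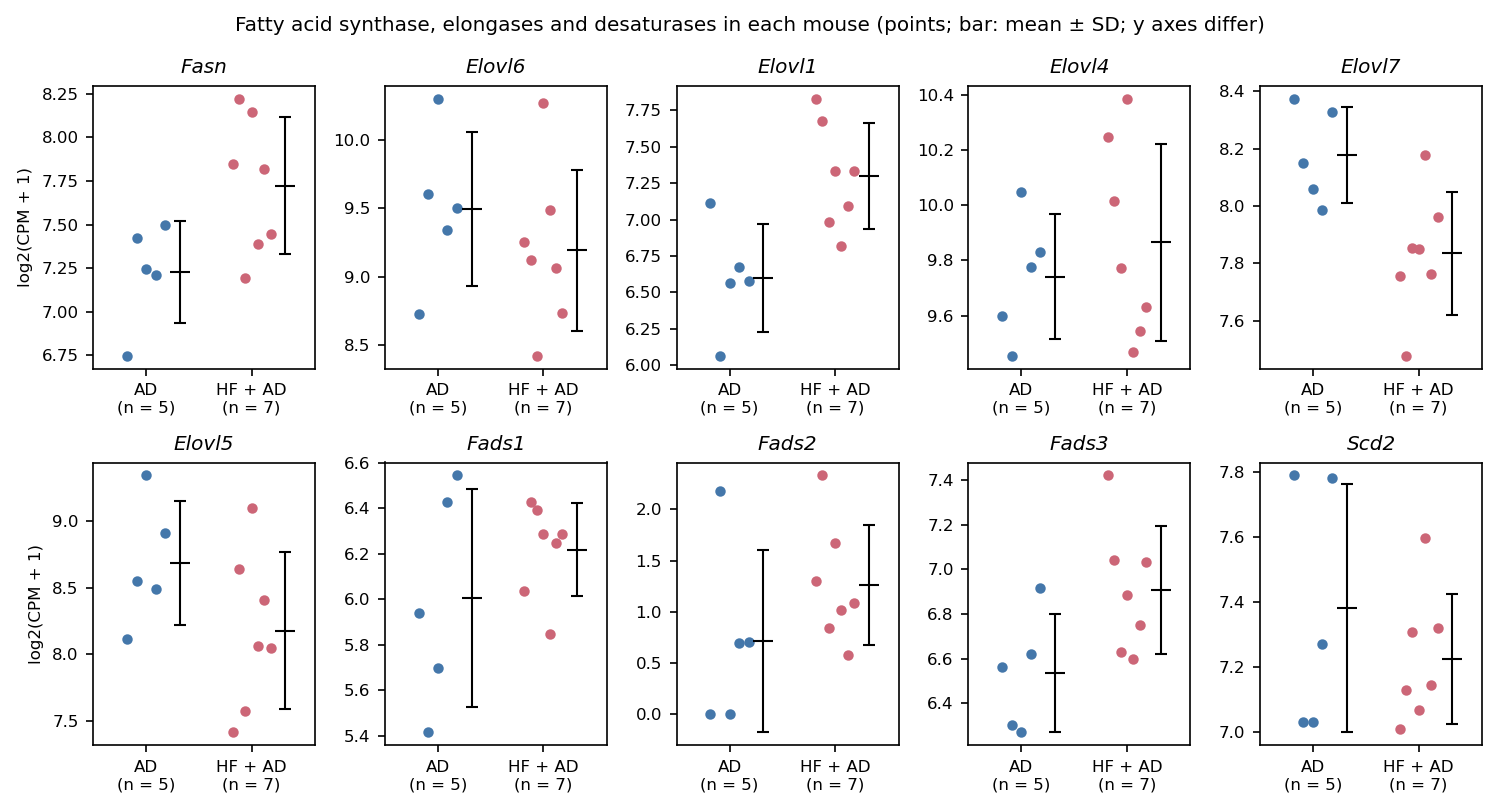
Level of each of the 10 genes as log2(CPM + 1) (y axis, with its own range in every panel) in 5 AD and 7 HF + AD mice, with 1 point per mouse and the mean and SD as bars. The groups overlap in every panel, although 4 HF + AD mice exceed every AD mouse for Elovl1 and 6 lie below every AD mouse for Elovl7.

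Elovl1 lies on chr4:118428093-118432953 (GRCm38, plus strand). Its level was 137, 66.0, 93.6, 101 and 94.7 CPM in AD mice 1 to 5, and in HF + AD mice the lowest was 112, the median 160.2 and the highest 226 CPM. AD mouse 1 was the only AD mouse above any HF + AD mouse, exceeding 3 of them, and 4 HF + AD mice were above all AD mice. Elovl1 rose 1.63-fold (log2 fold change 0.70, SE 0.20, 95% confidence interval 0.29 to 1.12, edgeR adjusted p = 0.0343; two-sided exact permutation p = 0.00884). The exact permutation p stayed at most 0.0333 when any 1 mouse was left out. The edgeR call was less stable. It was lost when AD mouse 2, 3, 4 or 5 was left out and likewise for HF + AD mouse 1, 2, 4 or 7, with an edgeR adjusted p of 0.0539 to 0.0818 and a log2 fold change of 0.59 at the lowest, whereas it held with AD mice 1 and 2 both left out (0.73, adjusted p = 0.0450).

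Fasn (chr11:120805846-120824547, minus strand), which makes the palmitate that the elongases extend, was at 107, 171, 151, 147 and 179.6 CPM in the 5 AD mice. The HF + AD mice ranged from 145 to 297 CPM with a median of 225 CPM. Of the 7 HF + AD mice, 4 were above every AD mouse and 3 lay within the AD range. The change of 1.44-fold (log2 fold change 0.52, SE 0.19, interval 0.13 to 0.92) missed the threshold across genes (edgeR adjusted p = 0.0900) and had an exact permutation p of 0.0455. It passed across genes only without HF + AD mouse 3 (0.61, edgeR adjusted p = 0.0473), while the exact permutation p was above 0.05 in 8 of 12 cases with 1 mouse left out (AD 1 to 4 and HF + AD 1, 2, 4 and 6, up to 0.121) and 0.142 without AD mice 1 and 2.

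Elovl7 (chr13:108214404-108285683, plus strand), another elongase of saturated very long chains, was at 331, 283, 266, 252 and 320.1 CPM in AD mice and at 177 to 289 CPM, with a median of 229.8 CPM, in HF + AD mice. All HF + AD mice except mouse 5 were below every AD mouse. The log2 fold change was -0.34 (SE 0.13, interval -0.61 to -0.067, edgeR adjusted p = 0.107), and the two-sided exact permutation p was 0.0139. That p was at most 0.0364 when any 1 mouse was left out and 0.0750 without AD mice 1 and 2.

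The other elongases did not pass either test. Elovl4 (chr9:83778692-83806277, minus strand), which makes the ultra-long chains of skin acylceramides, was at 774, 701, 1056, 876 and 909 CPM in AD mice and at 707 to 1336 CPM in HF + AD mice, with a log2 fold change of 0.15 (interval -0.21 to 0.51, edgeR adjusted p = 0.641). Elovl5 (chr9:77917364-77984519, plus strand), which elongates polyunsaturated chains, was at 276, 373, 648, 359 and 481 CPM in AD mice and at 170.1 to 547 CPM in HF + AD mice, with a log2 fold change of -0.46 (interval -1.01 to 0.09, edgeR adjusted p = 0.291). For Elovl5, 4 of 7 HF + AD mice were below all AD mice, while HF + AD mouse 4 was above 4 of the 5.

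Elovl6 (chr3:129532355-129638495, plus strand), which takes palmitate to stearate, varied widely within both groups. Its level was 422, 775, 1258, 649 and 725 CPM in AD mice and 343 to 1231 CPM in HF + AD mice, and the groups overlapped almost fully. The log2 fold change of -0.28 had an interval of -0.87 to 0.31 (edgeR adjusted p = 0.584), which leaves both directions inside the interval, and it moved to -0.033 when AD mouse 3 was left out and to -0.53 when HF + AD mouse 4 was. With 1 mouse left out, the log2 fold change ranged from 0.050 (without HF + AD mouse 4) to 0.23 for Elovl4 and from -0.66 to -0.27 (without AD mouse 3) for Elovl5.

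Of the desaturase genes, Fads1, Fads2 and Fads3 lie side by side on chromosome 19, with Scd2 on the same chromosome. Fads3 (chr19:10041569-10060110, plus strand), a desaturase that acts on sphingoid bases, was at 93.4, 77.8, 76.2, 97.5 and 120.0 CPM in AD mice and at 95.9 to 171 CPM, with a median of 117 CPM, in HF + AD mice. AD mouse 5 exceeded 4 of the 7 HF + AD mice, and the other 3 were above every AD mouse. The log2 fold change was 0.38 (SE 0.17, interval 0.03 to 0.73, edgeR adjusted p = 0.156) with an exact permutation p of 0.0455. That p was above 0.05 in 8 of 12 cases with 1 mouse left out (AD 1 to 4 and HF + AD 1, 2, 4 and 7, 0.0563 to 0.109) and 0.167 without AD mice 1 and 2.

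Fads1 (chr19:10182888-10196877, plus strand), which encodes the delta-5 desaturase of polyunsaturated fatty acids, was at 60.3, 41.7, 50.9, 85.1 and 92.3 CPM in AD mice and at 56.6 to 85.1 CPM in HF + AD mice. All 7 HF + AD mice lay inside the AD range, and the log2 fold change was 0.16 (interval -0.24 to 0.57, edgeR adjusted p = 0.648), or -0.040 without AD mice 1 and 2 (adjusted p = 0.922). Scd2 (chr19:44293674-44306864, plus strand), a stearoyl-CoA desaturase, was at 220.1, 129.8, 129.9, 154 and 219 CPM in AD mice and at 128 to 193 CPM in HF + AD mice, with a log2 fold change of -0.19 (interval -0.53 to 0.16, edgeR adjusted p = 0.521). With 1 mouse left out, the log2 fold change ranged from 0.040 (without AD mouse 2) to 0.33 (without AD mouse 5) for Fads1 and from -0.27 to -0.066 (without AD mouse 5) for Scd2.

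Fads2 (chr19:10062765-10101746, minus strand), which encodes the delta-6 desaturase, was close to the detection limit. It had 0, 34, 0, 7 and 7 counts in AD mice 1 to 5 and 6 to 52 counts in HF + AD mice. The 2 counts of 0 allow up to 0.257 and 0.299 CPM in those libraries. AD mouse 2 was above all HF + AD mice except mouse 2, and the log2 fold change of 0.73 had an interval of -1.51 to 2.98 (edgeR adjusted p = 0.724; exact permutation p = 0.223). The value rested on 1 mouse of each group. Without AD mouse 2 the log2 fold change was 2.29 (edgeR adjusted p = 0.220) and the exact permutation p 0.0212, and without HF + AD mouse 2 the log2 fold change was 0.31 (edgeR adjusted p = 0.914).

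**Figure D2:**
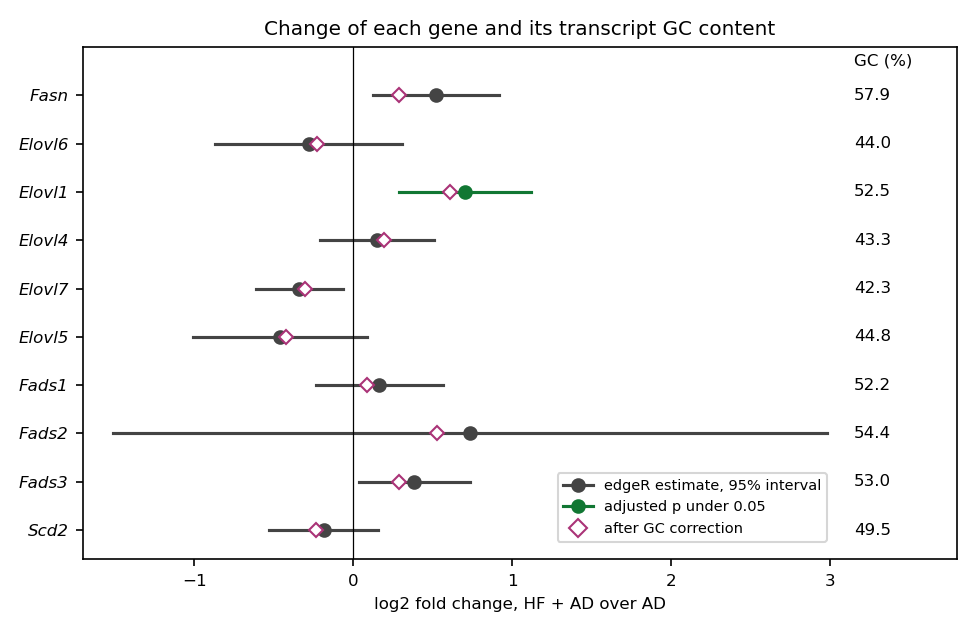
Log2 fold change of HF + AD over AD for each of the 10 genes, with its 95% confidence interval, as fitted and after correction for transcript GC content. Elovl1 at 0.70 is the only gene past the threshold, and Fasn moves from 0.52 to 0.28 with the correction.

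The direction of change in these libraries moved with the GC content of the transcript, over all genes. The tested genes were ranked by GC content into 5 classes of 2725 genes. In class 1, the lowest, the median log2 fold change was -0.088, with 72 genes higher and 206 lower past the threshold, and in class 5, the highest, it was 0.18, with 187 higher and 57 lower. Elovl4, Elovl6 and Elovl7 (42.3% to 44.0% GC) fell in class 1, Elovl5 in class 2, Scd2 in class 3, Elovl1, Fads1, Fads2 and Fads3 (52.2% to 54.4%) in class 4, and Fasn (57.9%) in class 5. When each library's trend with GC content was removed, Elovl1 kept a log2 fold change of 0.61 (edgeR adjusted p = 0.0495) and Elovl7 one of -0.31 (adjusted p = 0.168). Fasn went to 0.28 (edgeR adjusted p = 0.355) and Fads3 to 0.29 (adjusted p = 0.253). Across all genes called, 48.1% were higher, against 35.2% after this correction, 58.9% with library totals alone and 58.4% without AD mice 1 and 2. The GC correction also moved the median log2 fold change over all genes tested, from 0.023 to -0.046. The part of this shift in the corrected values was not tested.

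Some markers of other cells of the skin differed between the groups too. Across all genes tested, 4.43% were higher and 4.77% lower past the edgeR threshold. Of 7 tested markers of basal keratinocytes, 3 rose (Krt5, Krt14 and Krt15) and none fell, and their summed level was 3666 to 5379 CPM in AD mice and 6314 to 10992 CPM in HF + AD mice, without overlap. Krt5, a keratin of the basal layer, went from 2860 ± 592 to 5017 ± 865 CPM (SD; n = 5 and 7; log2 fold change 0.81, edgeR adjusted p = 0.00679). Of 11 tested sebocyte markers 1 rose (Awat1) and 1 fell (Scd1), with sums of 4111 to 5197 CPM in AD mice and 2961 to 4686 CPM in HF + AD mice, or 2240.1 to 2927 and 1889 to 3510 CPM without Scd1, which is also a pathway gene here. Of 10 adipocyte markers 1 rose (Lipe), but 6 of the 10 had a log2 fold change below 0, with a median of -0.34. Their sums were 268 to 1135 CPM in AD mice and 278 to 853 CPM in HF + AD mice. No marker found in these lists was at 0 in all libraries. The part of cell content in the values of Elovl1, Fasn, Elovl7 and Fads3 was not tested.

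Ratios between steps compare genes within the same library, so a library's total cancels out. They are ratios of reads, not of transcripts per length, and only their change is compared. Each ratio is built from the values of its genes in the same mice, so it is not a result apart from them. The 4 ratios were Elovl6 over Fasn, Elovl4 over Elovl1, Scd2 over Scd1 and Fads2 over Fads1, with p adjusted over these 4.

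The log2 ratio of Elovl6 to Fasn was 1.98, 2.17, 3.05, 2.13 and 2.01 in AD mice and 0.90 to 2.12, with a median of 1.29, in HF + AD mice. In 5 of the 7 HF + AD mice it was below every AD mouse, and AD mouse 3 was the highest of the 12. The means were 2.27 ± 0.44 (SD, n = 5) and 1.47 ± 0.46 (SD, n = 7), a difference of -0.80 (exact permutation p = 0.0164, adjusted p = 0.0404). In mean log2(CPM + 1), Elovl6 alone differed by -0.30 and Fasn alone by 0.50 (exact permutation p = 0.386 and 0.0455).

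The log2 ratio of Elovl4 to Elovl1 was 2.49, 3.39, 3.48, 3.10 and 3.25 in AD mice and 2.30 to 3.05, with a median of 2.45, in HF + AD mice. All AD mice except mouse 1 were above all HF + AD mice, and 4 of 7 HF + AD mice were below AD mouse 1. The means were 3.14 ± 0.39 (SD, n = 5) and 2.57 ± 0.27 (SD, n = 7), a difference of -0.57 (exact permutation p = 0.0202, adjusted p = 0.0404). In mean log2(CPM + 1), Elovl4 alone differed by 0.12 and Elovl1 alone by 0.70 (exact permutation p = 0.509 and 0.00884). For both ratios the adjusted p rose above 0.05 in 9 of 12 cases where 1 mouse was left out, at most to 0.0909 (without AD mouse 3), and was 0.0333 without AD mice 1 and 2. Both ratios set a transcript of lower GC content over one of higher GC content, and their change with GC content removed was not tested.

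The log2 ratio of Scd2 to Scd1 was -2.67, -4.08, -4.12, -3.54 and -3.31 in AD mice and -3.56 to -2.70 in HF + AD mice, a difference of 0.59 that missed the threshold (exact permutation p = 0.0505, adjusted p = 0.0673). AD mouse 1 was the highest of the 12, and without it the difference was 0.81 (exact permutation test, adjusted p = 0.0182), while without HF + AD mouse 4 it was 0.69 (adjusted p = 0.0289). For Fads2 over Fads1 the difference was 0.33 (exact permutation p = 0.523, adjusted p = 0.523), and AD mouse 2 stood above the other 4 AD mice at -3.24, against -5.73 and -5.84 in AD mice 4 and 5. AD mice 1 and 3 had no Fads2 read, so their values of -5.94 and -5.70 are set by the pseudocount.

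**Figure D3:**
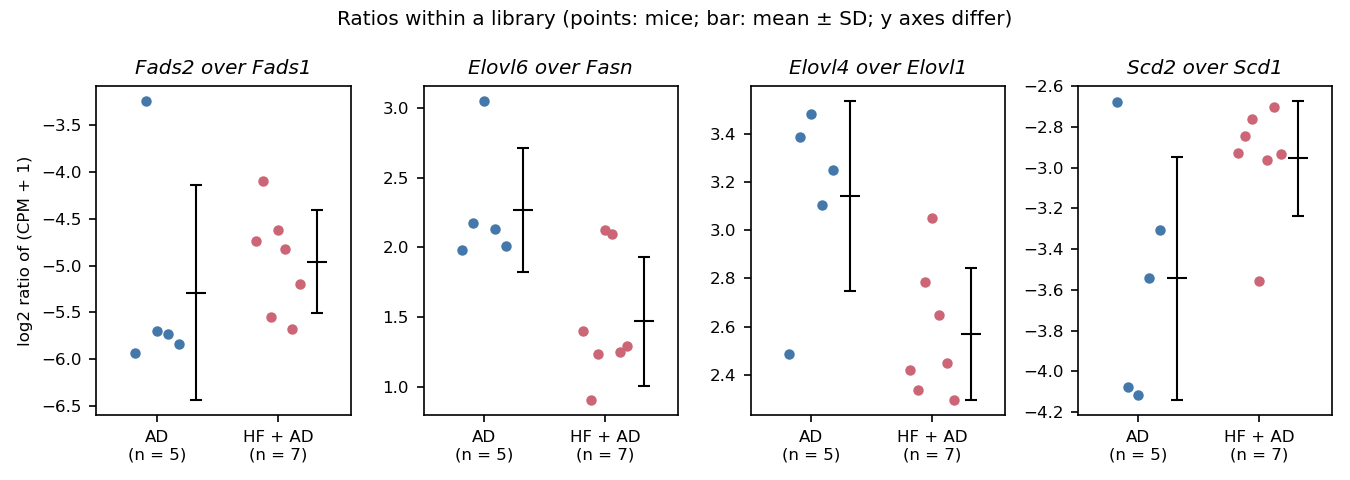
Log2 ratio of 2 genes within each library (y axis, with its own range in every panel), with 1 point per mouse and the mean and SD as bars. The HF + AD mice average 1.47 against 2.27 in AD mice for Elovl6 over Fasn, and 2.57 against 3.14 for Elovl4 over Elovl1, with overlap in every panel.

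Members of the family were then compared with each other across mice, after the mean of each group was taken off. Over the 12 mice none of the 45 pairs passed after adjustment, at n = 12 with 100000 permutations. The highest r was between Elovl5 and Elovl6 (r = 0.75, permutation p = 0.00860, adjusted p = 0.193; rho = 0.59, p = 0.0634), and it fell to 0.42 without the 2 mice farthest from the median of Elovl5. Elovl7 and Scd2 had r = 0.72 (permutation p = 0.00855, adjusted p = 0.193; rho = 0.72, p = 0.0208) and 0.80 without 2 mice. The lowest r was between Fasn and Elovl7 (r = -0.58, permutation p = 0.065, adjusted p = 0.375; rho = -0.47, p = 0.144; -0.60 without 2 mice).

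Elovl1 and Fads3 had r = 0.72 over the 12 mice (permutation p = 0.0130, adjusted p = 0.195; rho = 0.79, p = 0.00621, adjusted p = 0.171), and 0.58 without 2 mice. Within the 7 HF + AD mice alone they followed each other closely. HF + AD mouse 1 had the highest level of both genes, at 226 CPM of Elovl1 and 171 CPM of Fads3, and HF + AD mouse 5 the lowest of both, at 112 and 95.9 CPM. Pearson's r was 0.95 (exact permutation p = 0.000198, adjusted over 45 pairs 0.00893), the order of the 7 mice was the same for both genes (rho = 1.00, exact permutation p = 0.000397, adjusted 0.0179), and r was 0.89 without mice 1 and 5. This was the only pair of the 45 past the threshold in HF + AD mice, and whether the relation differs between the groups was not tested. Among AD mice the order was not the same for both genes. AD mouse 1 had the most Elovl1, at 137 CPM with 93.4 CPM of Fads3. AD mouse 5 had the most Fads3, at 120.0 CPM with 94.7 CPM of Elovl1. Both genes fell in GC class 4, and their correlation with the GC trend removed was not tested.

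**Figure D4:**
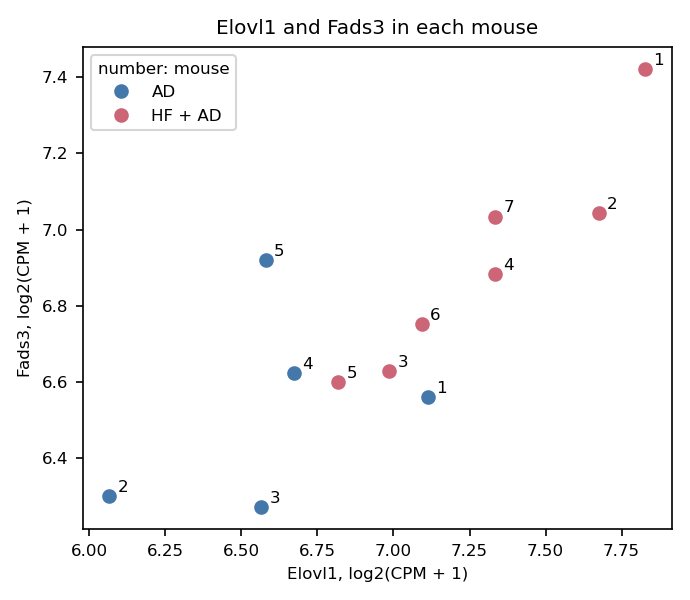
Fads3 against Elovl1, each as log2(CPM + 1), with 1 point per mouse, colored by group and numbered by mouse. The 7 HF + AD mice lie in the same order for both genes (r = 0.95), and AD mouse 1 lies to the right of the other AD mice.

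The promoters of this pair are shown because Elovl1 was the called gene and Fads3 the gene that varied with it. Each runs from 250 bases before the RefSeq start to 50 after it, 5′ to 3′, from RefSeq on GRCm38.p6, with GC boxes (GGGCGG) and CCAAT boxes (CCAAT) on either strand in capitals. The Elovl1 promoter is at chr4:118427843-118428142 and the Fads3 promoter at chr19:10041298-10041597, both on the plus strand. For Elovl1 the RefSeq and GENCODE starts coincide, and for Fads3 the RefSeq start lies 21 bases before the GENCODE start given above. Elovl1 has another RefSeq promoter at chr4:118429451-118429750, which is not printed, and the one shown lies at the start of the gene.
Elovl1: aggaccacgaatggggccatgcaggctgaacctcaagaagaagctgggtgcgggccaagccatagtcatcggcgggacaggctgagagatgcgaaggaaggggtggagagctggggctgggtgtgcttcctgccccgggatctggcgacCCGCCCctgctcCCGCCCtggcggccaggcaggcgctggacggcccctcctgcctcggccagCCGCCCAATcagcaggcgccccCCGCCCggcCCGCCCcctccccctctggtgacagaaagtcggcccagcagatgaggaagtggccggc
Fads3: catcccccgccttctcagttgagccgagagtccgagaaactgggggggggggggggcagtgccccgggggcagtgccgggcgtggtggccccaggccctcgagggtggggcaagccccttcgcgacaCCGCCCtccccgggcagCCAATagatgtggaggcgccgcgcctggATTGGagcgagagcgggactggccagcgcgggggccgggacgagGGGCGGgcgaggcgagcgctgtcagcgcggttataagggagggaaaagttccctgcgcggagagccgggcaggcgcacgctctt

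The Elovl1 promoter shown held 5 GC boxes and 1 CCAAT box, which overlaps a GC box by its first letters, at 70.7% GC, and the other Elovl1 promoter held 2 GC boxes and no CCAAT box. The Fads3 promoter held 2 of each, at 73.0% GC. Promoters in the table matched 8 of the 10 genes with 9 promoters, Fads1 and Scd2 being without an entry. A GC box was found in 6 of the 9 promoters and in 35.7% of 32851 mouse promoters, a CCAAT box in 5 of 9 and in 37.4%, an E-box (CACGTG) in 2 of 9 (Elovl4 and Elovl5) and in 7.15%, and the sterol element TCACNCCAC in 0 of 9 and in 1.24%. A match of letters is a description and not a measured binding site.

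The genes around the family were read from 6 lists with 64 genes, of which 60 were tested. Of these, 7 (11.7%) passed the edgeR threshold, against 9.2% of all genes, 2 of them higher and 5 lower (3.33% and 8.33%, against 4.43% and 4.77%), so the share called is near that of all genes. The median log2 fold change was -0.045 against 0.023 over all genes. The genes named are those past the threshold and then those with the highest mean level, up to 3 per list. Genes called by DESeq2 or limma-trend but not by edgeR are named as well.

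In the elongation cycle, 1 of 7 tested genes fell and none rose with edgeR, with a median log2 fold change of 0.32. Hsd17b12, the ketoacyl reductase that follows every ELOVL condensation, fell from 1077 ± 154 CPM (SD, n = 5) to 703 ± 185 CPM (SD, n = 7), with a log2 fold change of -0.62 (SE 0.16, edgeR adjusted p = 0.0281), and 6 of 7 HF + AD mice were below all AD mice. The call was lost in 5 of 12 cases with 1 mouse left out (AD 2 and 3, HF + AD 2, 6 and 7, edgeR adjusted p up to 0.0644) and without AD mice 1 and 2 (adjusted p = 0.0737). Hacd3, of the dehydratase family, had a log2 fold change of -0.12 (edgeR adjusted p = 0.627) and the elongase Elovl3 one of -0.011 (adjusted p = 0.984). Tecr, the reductase that ends the cycle and a gene picked after its values were seen, had a log2 fold change of 0.75 (edgeR adjusted p = 0.0571). Tecr passed with DESeq2 and limma-trend, while after the GC correction its log2 fold change was 0.52 (edgeR adjusted p = 0.116). Elovl2 had reads only in HF + AD mice, at most 7 counts, and was not tested.

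Among the other desaturases and their electron donors, 1 of 8 tested genes rose and 1 fell. Scd1, the main stearoyl-CoA desaturase of sebaceous glands, fell from 1972 ± 364 CPM (SD, n = 5) to 1182 ± 264 CPM (SD, n = 7), a log2 fold change of -0.74 (SE 0.16, edgeR adjusted p = 0.0126), with 5 of 7 HF + AD mice below all AD mice. Cyb5a, the cytochrome b5 that passes electrons to desaturases, rose from 52.4 ± 5.04 to 95.6 ± 34.8 CPM (log2 fold change 0.87, SE 0.23, edgeR adjusted p = 0.0270), and 6 of the 7 HF + AD mice exceeded every AD mouse. Single mice whose removal ended the Cyb5a call were AD 3 and 4 and HF + AD 1, 2 and 4 (edgeR adjusted p up to 0.0643) and so did removing AD mice 1 and 2 together (adjusted p = 0.0707). Degs1, the ceramide desaturase, had a log2 fold change of -0.32 (edgeR adjusted p = 0.130). The median of the list was -0.20.

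In the list for the supply of acetyl-CoA and malonyl-CoA, 1 of 10 genes fell and none rose with edgeR, DESeq2 or limma-trend, with a median log2 fold change of -0.049. Me1, the malic enzyme that makes NADPH for fatty acid synthesis, fell from 235 ± 50.4 to 128 ± 34.4 CPM (SD; log2 fold change -0.88, SE 0.18, edgeR adjusted p = 0.0101), and all 7 HF + AD mice were below all 5 AD mice. Mid1ip1, a partner of acetyl-CoA carboxylase, had a log2 fold change of -0.11 (edgeR adjusted p = 0.719), and Acly, the ATP citrate lyase, one of 0.15 (adjusted p = 0.629).

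Of 13 lipogenic regulators, 2 fell and none rose with edgeR and with DESeq2, and the median was -0.010. With limma-trend Nr1h3, the receptor LXR alpha and a gene picked after its values were seen, rose as well. It had 0 to 75 counts per mouse and a log2 fold change of 2.00 (edgeR adjusted p = 0.209), and 5 of the 7 HF + AD mice exceeded every AD mouse. Insig1, which holds the SCAP-SREBP complex in the endoplasmic reticulum, fell from 51.5 ± 17.5 to 27.3 ± 5.89 CPM (SD; log2 fold change -0.91, SE 0.22, edgeR adjusted p = 0.0170). Rxra, the partner receptor of LXR and PPAR, fell from 285 ± 9.91 to 199 ± 25.8 CPM (log2 fold change -0.52, SE 0.12, edgeR adjusted p = 0.0137). For both genes all 7 HF + AD mice were below all AD mice. Scap, the escort of SREBP, had a log2 fold change of -0.30 (edgeR adjusted p = 0.110). The calls of Scd1, Me1, Insig1 and Rxra held when any 1 mouse was left out, with an edgeR adjusted p of at most 0.0495, and without AD mice 1 and 2.

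Among mitochondrial elongation enzymes and thioesterases, 1 of 11 genes rose and none fell with edgeR, and the median was 0.11. DESeq2 called 3 higher (Hadha, Mecr and Acot7) and 1 lower (Hadh), and limma-trend called Hadha higher and Hadh lower. Over all 14163 genes tested, DESeq2 called 1945 and limma-trend 1558, against 1303 with edgeR. Hadha, a subunit of the trifunctional protein of beta-oxidation, rose from 57.0 ± 13.0 to 104 ± 37.2 CPM (SD; log2 fold change 0.87, SE 0.25, edgeR adjusted p = 0.0363), and 6 of the 7 HF + AD mice exceeded every AD mouse. The Hadha call was lost in 8 of 12 cases with 1 mouse left out (edgeR adjusted p up to 0.0863), namely AD 1 to 4 and HF + AD 1, 2, 4 and 6, as well as without AD mice 1 and 2 (adjusted p = 0.131) and after the GC correction (0.0531). Hadh, the hydroxyacyl-CoA dehydrogenase, had a log2 fold change of -0.38 (edgeR adjusted p = 0.0635) and Acaa2, a thiolase, one of 0.032 (adjusted p = 0.904).

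None of the 11 genes of the acylceramide steps passed with edgeR, DESeq2 or limma-trend, 3 had an unadjusted edgeR p under 0.05, against 25.1% of all genes, and the median was -0.27. Slc27a4, a fatty acid transporter and acyl-CoA synthetase of the epidermis, had a log2 fold change of 0.46 (edgeR adjusted p = 0.148), Abhd5, a lipase co-activator, one of -0.37 (adjusted p = 0.0932) and Ugcg, the glucosylceramide synthase, one of -0.55 (adjusted p = 0.215).

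**Figure D5:**
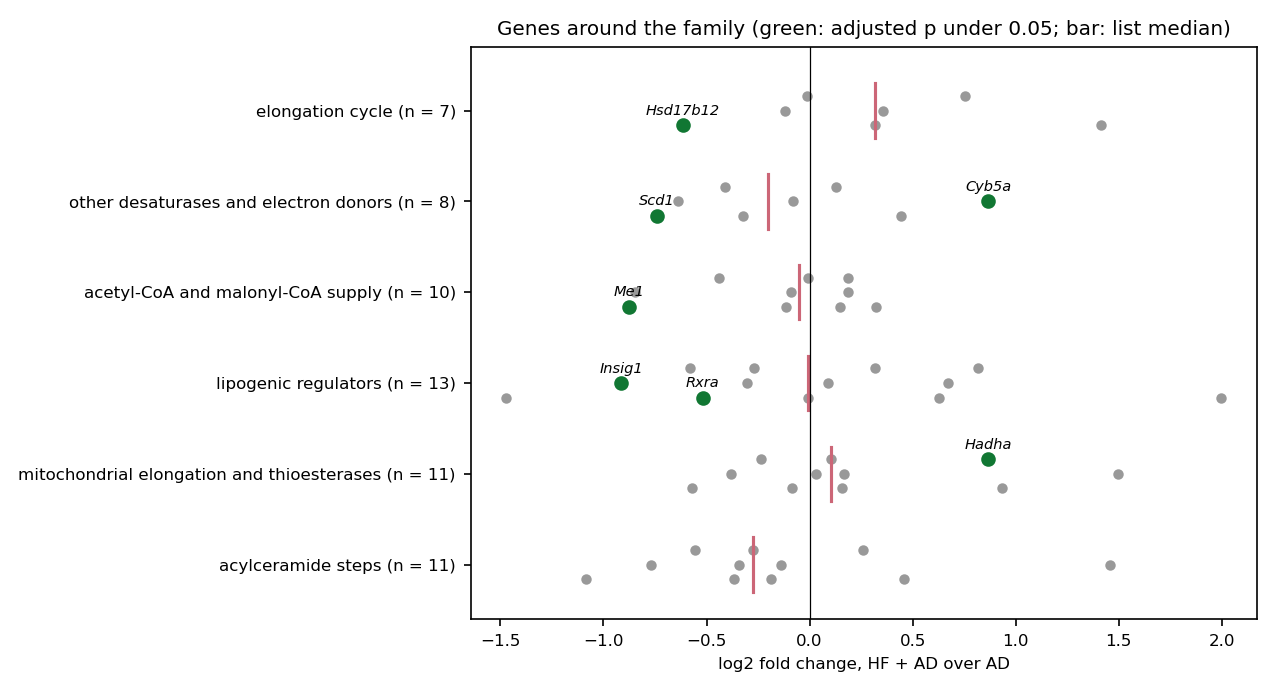
Log2 fold change of HF + AD over AD (x axis) for the 60 tested genes in 6 lists around the family, with 1 point per gene, green points past the adjusted threshold and a bar at the median of each list. The 7 genes past the threshold are Cyb5a and Hadha on the right and Hsd17b12, Scd1, Me1, Insig1 and Rxra on the left.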

How the data were processed

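The 12 mice were grouped by their labels. The authors sequenced 3′ mRNA libraries (QuantSeq) on an Illumina sequencer and deposited raw read counts per gene symbol for 23282 entries. The submitters' processing notes name Bowtie2, bedtools and mm10, and versions, annotation and handling of duplicate reads are not given in the sources used here. A count of 0 allows 3 counts, up to 0.308 CPM. No molecular identifiers are described, so limits cover counting error only. The labels number the samples of a group without naming animals, so p-values set the difference between groups against the spread between these libraries.

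Counts were fitted across 14163 genes with edgeR 4.0.16 in R 4.3.3 (TMM, filterByExpr, quasi-likelihood, Benjamini-Hochberg, threshold 0.05). Single genes and ratios used log2(CPM + 1) and two-sided exact permutation over 792 splits, whose smallest p is 0.00126. Correlations used 100000 permutations, or, among HF + AD mice alone, exact permutation. Transcript GC content came from GENCODE M21. The alternatives were library totals, DESeq2 1.42.0 size factors and Wald test, no filter, at least 10 counts per mouse, limma-trend (limma 3.58.1), a replicate block, a robust prior, a GC correction in 20 bins, a pseudocount of 0.1, a rank statistic and leaving out each mouse. Leaving out AD mice 1 and 2 together was chosen after seeing the data. Other steps used Python 3.11.15, NumPy 2.4.6, SciPy 1.17.1, pandas 2.3.3 and matplotlib 3.10.9. On simulated data for this comparison, with log2 changes of 1 to 2 in size, 194 of 196 changed genes and 8 unchanged genes of 14040 were called. The simulated spread between mice was the same for every gene (coefficient of variation 0.2), without a GC trend. Smaller changes, such as the 0.70 of Elovl1, were not simulated. The genes, lists and the rule for named genes (given in the text) were chosen with earlier results of these data known.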

Additional observations from a re-analysis of the deposited data

Results flagged for a closer look

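In 7 of 50 groups of values checked, 1 mouse lay far from the others of its group, where chance gives about 1 in 20. For the log2 ratio of Fads2 to Fads1, AD mouse 2 was at -3.24, and the next AD mouse was at -5.70, a value set by the pseudocount. For Elovl6 over Fasn, AD mouse 3 was at 3.05 and the next AD mouse at 2.17. For Scd2 over Scd1, HF + AD mouse 4 was at -3.56 and the next HF + AD mouse at -2.96.

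The other cases were sums of marker genes. AD mouse 1 had 24190 CPM of hyperproliferative markers, with the next AD mouse at 9707 CPM, and 24.8 CPM of T cell markers, with the next at 9.31 CPM. HF + AD mouse 1 had 10992 CPM of basal keratinocyte markers, with the next HF + AD mouse at 8062 CPM. HF + AD mouse 7 had 853 CPM of adipocyte markers, with the next at 521 CPM. The causes were not tested.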

How the results depend on the processing

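With all mice 1303 genes were called, and in new fits with 1 mouse left out the total was 639 to 1461. The count moved most without AD 2 (803) and, among HF + AD mice, without 1 (686), 2 (639) or 4 (794). Of the 10 genes examined 0 to 2 were called in these cases (1 with all mice), and of the 60 pathway genes 4 to 9 (7 with all mice; 4 when AD 3 or HF + AD 2 was left out). DESeq2's Wald test called 11 pathway genes, and it called 1945 of all 14163 genes tested, against 1303 with edgeR. The count of genes with an exact permutation p under 0.05 was 4, 2 to 4 with 1 mouse left out and 1 without AD mice 1 and 2. With 1 mouse left out, the difference in log2 ratio ranged from -0.91 to -0.60 for Elovl6 over Fasn, from -0.74 to -0.49 for Elovl4 over Elovl1, from 0.45 to 0.81 for Scd2 over Scd1 and from 0.17 to 0.84 for Fads2 over Fads1. Without AD mice 1 and 2 the last 2 were 0.70 and 0.80, each with an adjusted exact permutation p of 0.0333, and Fads1 turned to -0.040. The Fads2 over Fads1 difference was 1.41 with a pseudocount of 0.1. In the 7 HF + AD mice alone 1 pair of genes correlated past the threshold, against 0 over all mice. Elovl1 kept its direction in all 22 alternatives (log2 fold change 0.59 to 0.85, edgeR adjusted p 0.00958 to 0.0822) and passed in 13. The cause of these shifts was not tested.

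The labels give replicate numbers to both groups. Deviations of same-numbered mice correlated at -0.11 to 0.07, and 1 of 5 numbers (4) correlated best with its own number. The labels name no batch, and whether same-numbered mice shared one was not tested. With a replicate block 192 genes were called, with 0 of the 10 genes and 0 pathway genes (edgeR adjusted p of Elovl1 0.0822).

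Fads2 changed from a log2 fold change of 0.73 to 2.29 without AD mouse 2. Elovl2, Scd4, Fads6 and Tecrl were too low to test. With 5 and 7 mice, a p that misses the threshold does not show that levels were equal.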

Other observations

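Some other cell type markers differed as well, where 4.43% of all genes tested were higher and 4.77% lower past the edgeR threshold. Of 9 tested hair shaft keratins and related genes, 3 rose (Krt31, Krt34 and Krt86) and none fell, with sums of 2574 to 5270 CPM in AD mice and 3975 to 6577 CPM in HF + AD mice. Krt31, a hair keratin of the shaft cortex, went from 442 ± 104 CPM (SD, n = 5) to 973 ± 225 CPM (SD, n = 7), with a log2 fold change of 1.14 (edgeR adjusted p = 0.00459). Of 10 skeletal muscle markers, Acta1 and Atp2a1 fell, and the sums were 1252 to 2738 CPM and 768 to 2025 CPM. Acta1, the skeletal muscle actin, went from 716 ± 168 to 433 ± 153 CPM (log2 fold change -0.72, edgeR adjusted p = 0.0481). Of 7 endothelial markers, Cdh5 and Kdr rose, while 3 of the 7 had a log2 fold change below 0. Their sums were 43.4 to 82.0 CPM in AD mice and 49.5 to 101 CPM in HF + AD mice.

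No marker of suprabasal keratinocytes (7 tested), hyperproliferative epidermis (7), dermal fibroblasts (7), macrophages and dendritic cells (8) or T cells (5) passed the edgeR test at an adjusted p under 0.05, nor with DESeq2 or limma-trend. The count by edgeR at an unadjusted p under 0.05 was 1, 2, 1, 1 and 1, in that order, against 25.1% of all genes tested. The summed level of the macrophage and dendritic cell markers was 19.0 to 69.6 CPM in AD mice and 31.3 to 126 CPM in HF + AD mice. AD mouse 1 had the highest sum among AD mice in 7 of the 11 marker lists: hyperproliferative epidermis, suprabasal keratinocytes, adipocytes, dermal fibroblasts, macrophages and dendritic cells, T cells and endothelium.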
